A study of Homo sapiens with 22 samples.

Results

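The MYC/MAX/MXD network is a small family of transcription factors that bind DNA in pairs, and its transcripts were followed here across every group of an RNA-seq experiment in H1299 cells. The 9 genes were chosen by their symbols as MYC, MAX, MXI1, MXD1, MXD3, MXD4, MNT, MLX and MLXIP, and all 9 were found among the 37908 genes of the count table. MYC pairs with MAX, binds E-box sequences and activates genes of growth, ribosome production and nucleotide synthesis. The MXD proteins, MXI1 (also called MXD2) and MNT pair with the same partner and recruit the SIN3 and histone deacetylase complex, so that they repress the genes that MYC activates, and MXD genes are best known for rising as cells leave the cell cycle. MLX is an alternative partner of several of them and of MLXIP (MondoA), a sensor of glucose metabolites. The kinase GSK3 marks MYC protein for degradation, and MYC is a textbook target of β-catenin in intestinal cells, which is why an inhibitor of GSK3 and an siRNA against β-catenin are of interest for this network. RNA-seq reads the transcripts and says nothing of the proteins.

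H1299 cells derive from a human non-small cell carcinoma of the lung, and here they carried a BRCA2 shRNA that doxycycline (DOX) induces. BRCA2-proficient stands for cultures without DOX and BRCA2-deficient for those kept in DOX at 2 µg/mL for 3 days; no DOX-treated culture without the shRNA was among the samples, so DOX and BRCA2 depletion cannot be told apart. Cells of each kind received control siRNA or siRNA against β-catenin (siβ-catenin), and were then left without inhibitor or given 250 nM of the GSK3 inhibitor LY2090314 (GSK3i) for 24 h. The resulting 8 groups held 22 libraries, with 2 each in the BRCA2-proficient untreated and siβ-catenin groups (numbered 2 and 3) and 3 in each of the others; untreated means control siRNA without inhibitor. According to the study these were independent experiments on a single engineered line. Library totals were 18938266 to 29280122 counts. The lowest count of any network gene in any library was 203, so the spread between replicates and not counting error limited the comparisons. The epithelial keratins KRT8 and KRT18 and the mesenchymal gene VIM were abundant in every library (lowest normalised count 2037 for KRT8), KRT19 was at most 5.77 normalised counts, and the leukocyte, endothelial and erythroid markers measured (PTPRC, CD79A, CDH5, HBA1) were at most 24.0.

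The targeted genes were checked first. BRCA2 lay between 71.4 and 225.3 normalised counts in the 12 BRCA2-deficient libraries and between 513.6 and 1111 in the 10 BRCA2-proficient ones. CTNNB1, which encodes β-catenin, lay between 976.8 and 2217 in the 11 siβ-catenin libraries and between 5206 and 8669 in the others. The GSK3i labels were checked on 3003 genes called in the same direction with GSK3i in both backgrounds, none of them a network gene or a gene of the lists used here, by placing each library on a scale where 0 is the untreated mean of its background and 1 the GSK3i mean. In BRCA2-deficient cells the siβ-catenin libraries lay at -0.085 to 0.111 and the GSK3i+siβ-catenin libraries at 0.673 to 0.749. In BRCA2-proficient cells the library labelled siβ-catenin replicate 2 lay at 0.746 and replicate 3 at 0.306, whereas the library labelled GSK3i+siβ-catenin replicate 2 lay at 0.00883 and replicates 1 and 3 at 0.729 and 0.769. On this scale the libraries labelled siβ-catenin 2 and 3 and GSK3i+siβ-catenin 2 of BRCA2-proficient cells went against their GSK3i labels, in part for siβ-catenin 3. Below they are called at odds with their labels in this sense alone, and the reason was not tested. The WNT target AXIN2 had 67.2 and 65.0 normalised counts in BRCA2-proficient siβ-catenin replicates 2 and 3, beside 82.4 and 72.3 in the untreated libraries. In GSK3i+siβ-catenin replicates 1, 2 and 3 it had 145.0, 73.1 and 117.4. By this 1 gene, GSK3i+siβ-catenin 2 again lay apart from replicates 1 and 3. The siβ-catenin replicates 2 and 3 lay below those 2 libraries, unlike the place of siβ-catenin 2 on the scale of 3003 genes. Labels were kept as deposited, and results that rest on these libraries are given below as such.

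**Figure D1:**
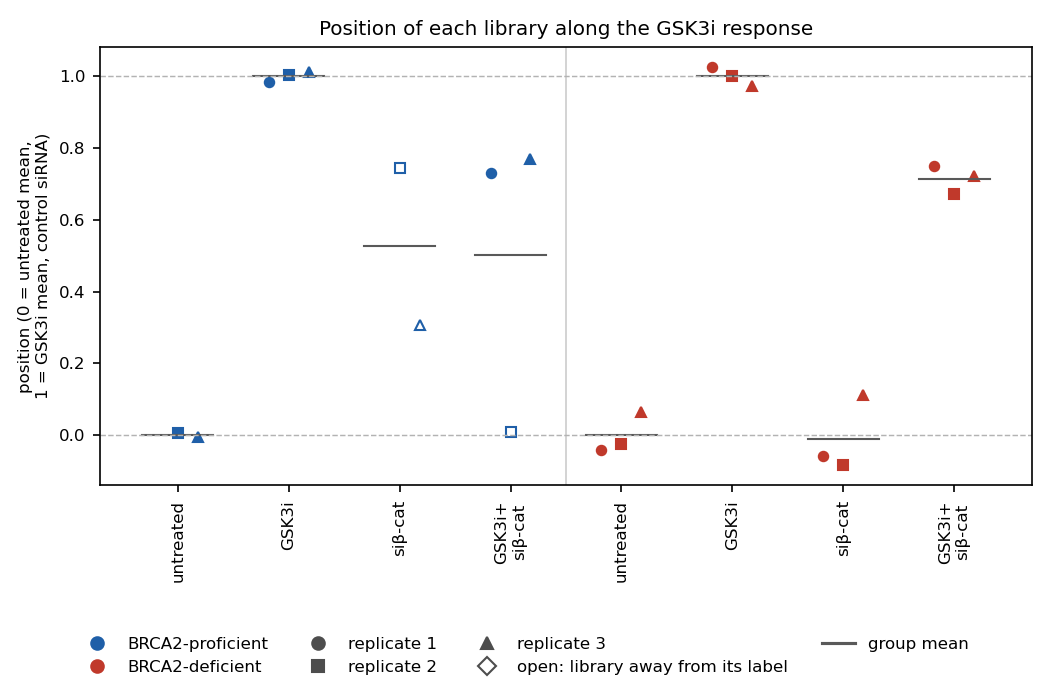
Each point is 1 library placed on the GSK3i response of 3003 genes (vertical axis, no unit; 0 is the untreated mean and 1 the GSK3i mean of the same BRCA2 background), by group; bars are group means and open symbols the 3 BRCA2-proficient libraries at odds with their labels. The library labelled GSK3i+siβ-catenin replicate 2 lies at 0.00883, beside the untreated libraries, and the one labelled siβ-catenin replicate 2 at 0.746.

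Levels between genes were compared per kilobase of merged exons (normalised counts per kb). By the median over the 22 libraries MYC was the most abundant of the network at 705 per kb, followed by its partner MAX at 249, MXD4 at 233, MLXIP at 198 and MLX at 190. MXD1 (96.8), MNT (75.8), MXD3 (73.5) and MXI1 (64.6) were lower. The median of MXD4 hides its range, since its highest library was 9.76 times its lowest; the same ratio was 3.78 for MXD3, 3.69 for MXI1, 3.17 for MNT, 2.60 for MYC, between 1.82 and 1.90 for MLX, MXD1 and MLXIP, and 1.45 for MAX. The most and the least variable genes of the network were therefore a repressor and the common partner.

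**Figure D2:**
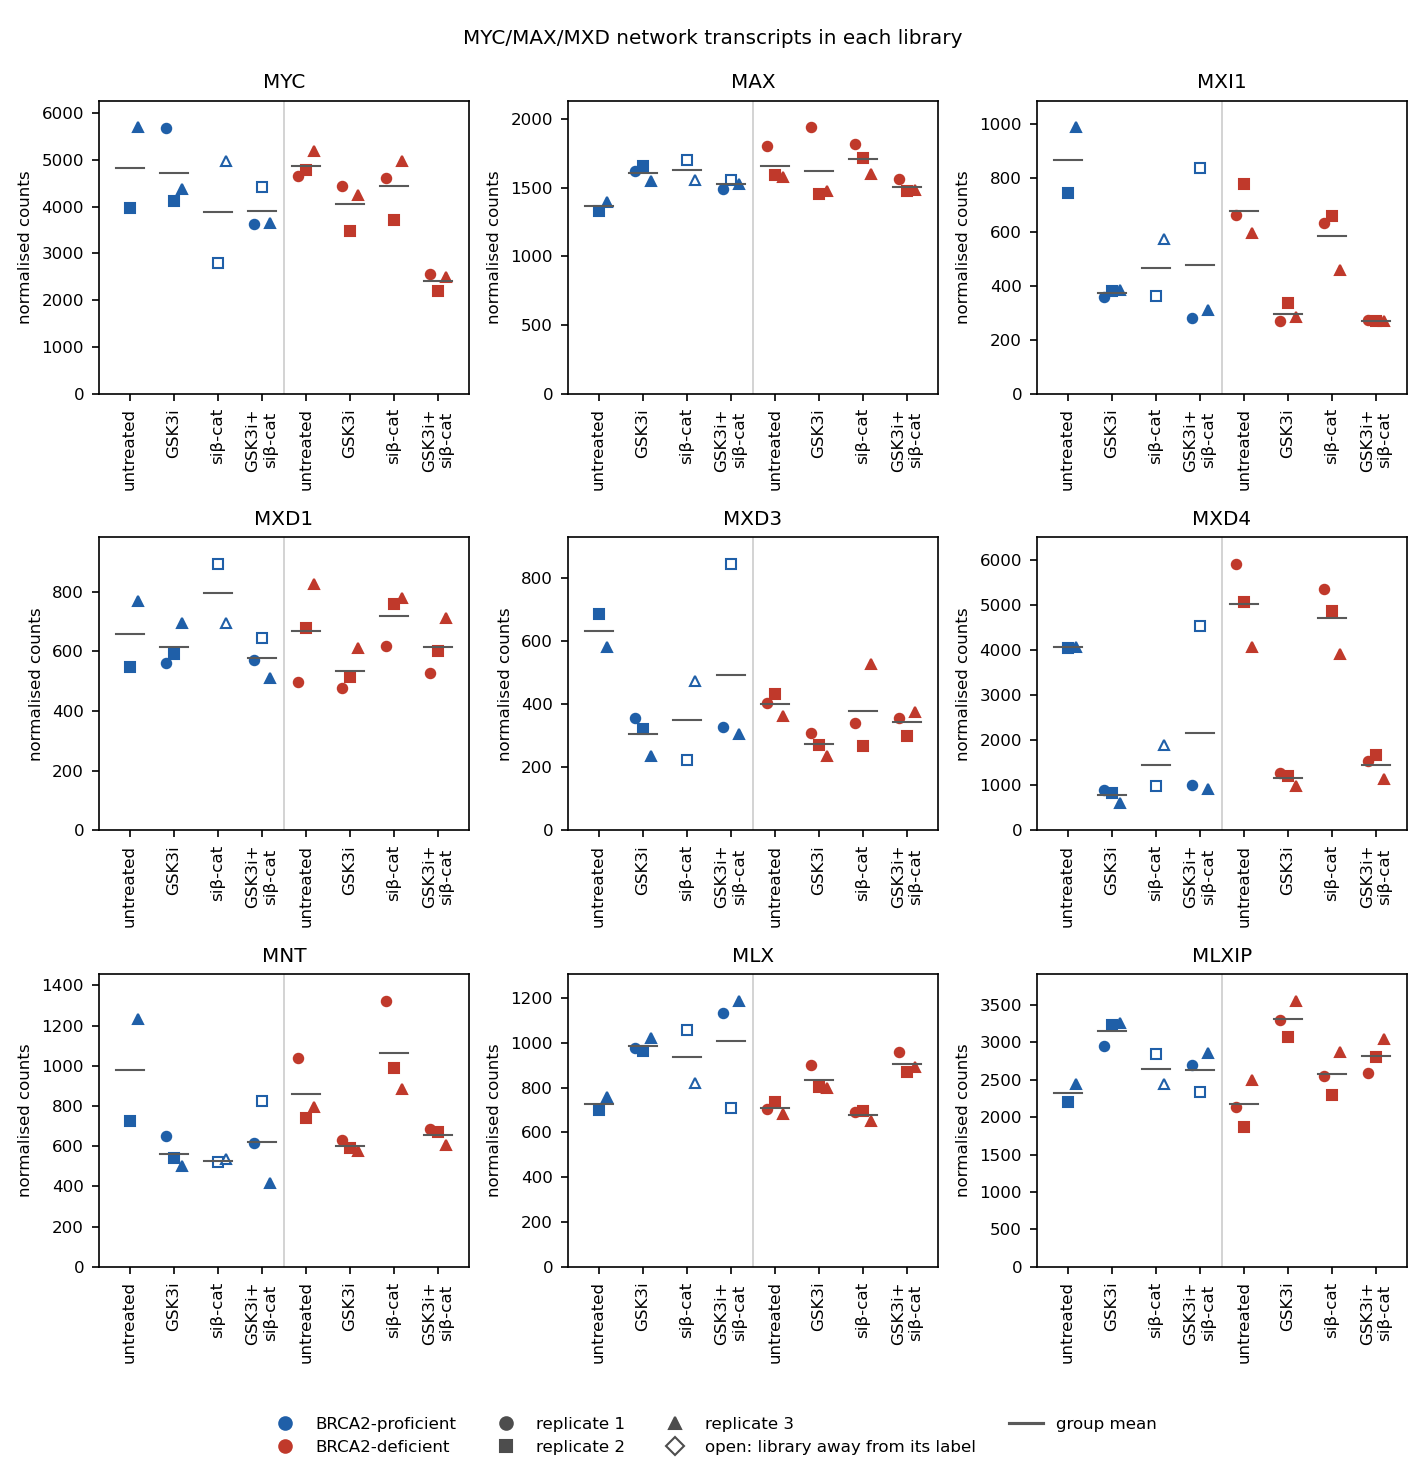
Normalised counts (vertical axes, linear from 0, a scale for each gene) of the 9 network genes in each of the 22 libraries by group; symbols give the replicate, colours the BRCA2 background, bars the group mean and open symbols the 3 libraries at odds with their labels. MXD4 lies at 607 to 1266 in the 6 GSK3i libraries with control siRNA and at 4059 to 5918 in the 5 untreated ones, and MYC is lowest in BRCA2-deficient GSK3i+siβ-catenin cells at 2192 to 2568.

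The first comparison asked how inhibition of GSK3 changed the network in cells with control siRNA. Of the 5 repressors MXD4, MXI1, MNT and MXD3 fell, and neither MXD1 nor MYC was called. In BRCA2-proficient cells 4 of the 9 genes passed the test (DESeq2, adjusted p below 0.05 and log2 fold change beyond 0.5 in size), all lower, beside 26.1% of 16771 genes tested called in either direction and 14.3% called lower. In BRCA2-deficient cells 5 passed, the same 4 lower and MLXIP higher, beside 25.4% of 16863 genes called, 13.8% lower and 11.6% higher. The background of called genes was high in both, and the counts of network genes are read against it as a description. The median log2 change of the 9 genes was -0.12 and -0.32, beside -0.00209 and 0.02 over all genes.

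MXD4 (ENSG00000123933, chromosome 4, 2249159 to 2263836, minus strand, GRCh37 as for all genes here), which encodes the repressor MAD4, moved most. It had 4059 and 4075 normalised counts in the BRCA2-proficient untreated libraries and 891, 819 and 607 with GSK3i. In BRCA2-deficient cells it had 5918, 5071 and 4069 untreated and 1266, 1215 and 973 with GSK3i. The groups were far apart in each background. The log2 fold change was -2.41 ± 0.17 (SE; DESeq2 adjusted p = 4.11e-44) and -2.13 ± 0.20 (DESeq2 adjusted p = 4.68e-24), and it stayed called in every alternative fit of these comparisons. Fewer transcripts per cell and fewer cells carrying them cannot be told apart in bulk RNA.

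MXI1 (ENSG00000119950, chromosome 10, 111967363 to 112047123, plus strand), the MXD2 repressor, fell to less than its untreated range in both backgrounds. Its untreated libraries held 744 and 988 (BRCA2-proficient) and 664, 778 and 595 normalised counts (BRCA2-deficient). With GSK3i they held 359, 379 and 385, and 268, 335 and 283. The changes were -1.23 ± 0.18 (DESeq2 adjusted p = 8.79e-11) and -1.20 ± 0.19 (DESeq2 adjusted p = 1.01e-08), again called in every alternative fit.

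MNT (ENSG00000070444, chromosome 17, 2287367 to 2304398, minus strand), a larger repressor present in cycling cells, fell less. It had 728 and 1232 untreated and 649, 542 and 500 with GSK3i in BRCA2-proficient cells, against 1037, 741 and 795 untreated and 633, 589 and 578 with GSK3i in BRCA2-deficient cells. The ranges did not overlap but lay close. The log2 changes were -0.82 ± 0.21 (DESeq2 adjusted p = 0.000852) and -0.52 ± 0.19 (DESeq2 adjusted p = 0.0243). The first rested on untreated replicate 3: without it the change was -0.39 and was not called (DESeq2 adjusted p = 0.292). The second was lost in 5 of 11 alternative fits, with the change between -0.62 and -0.36, including without untreated replicate 1, without GSK3i replicate 2 and without GSK3i replicate 3.

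MXD3 (ENSG00000213347, chromosome 5, 176728462 to 176739758, minus strand), unlike other MXD genes known for expression in S phase, had 685 and 582 normalised counts untreated and 358, 320 and 237 with GSK3i in BRCA2-proficient cells, a change of -1.07 ± 0.20 (DESeq2 adjusted p = 1.49e-06). In BRCA2-deficient cells it had 405, 433 and 361 and then 309, 271 and 236, a change of -0.56 ± 0.19 (DESeq2 adjusted p = 0.0161) that was lost in 5 of 11 alternative fits (DESeq2 adjusted p up to 0.178), among them without untreated replicate 1 or 2 and without GSK3i replicate 2 or 3. Its exons share 24.2% of their length with PRELID1 on the opposite strand, whose mean count was 3692 against 395 for MXD3, and 19.5% with RAB24 on the same strand. The libraries were strand specific, but the strand setting of the counting is not given in the sources used here, so MXD3 is the least certain value of the network.

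MXD1 (ENSG00000059728, chromosome 2, 70124820 to 70170077, plus strand), the founding MXD repressor, was not called. Its libraries held 549 and 771 untreated and 561, 591 and 696 with GSK3i in BRCA2-proficient cells. The BRCA2-deficient ones held 499, 678 and 826 and then 478, 513 and 612. The ranges overlapped, and the 95% intervals of the log2 change ran from -0.48 to 0.25 and from -0.77 to 0.12.

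The network's activators and shared partners were compared next. MYC (ENSG00000136997, chromosome 8, 128747680 to 128755197, plus strand) had 3969 and 5700 untreated and 5694, 4121 and 4375 with GSK3i in BRCA2-proficient cells, and 4664, 4779 and 5195 untreated and 4434, 3489 and 4244 with GSK3i in BRCA2-deficient cells. The BRCA2-proficient groups overlapped, whereas every BRCA2-deficient GSK3i library lay below the untreated ones. The log2 change was -0.05 with a 95% interval of -0.40 to 0.31, and -0.27 with an interval of -0.58 to 0.04, and neither was called. An increase of more than 0.31 in the MYC transcript lay outside both intervals. MAX (ENSG00000125952, chromosome 14, 65472892 to 65569413, minus strand) had changes of 0.22 ± 0.13 and -0.03 ± 0.18, not called.

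MLXIP (ENSG00000175727, chromosome 12, 122516628 to 122631894, plus strand) had 2205 and 2446 normalised counts untreated and 2954, 3236 and 3262 with GSK3i in BRCA2-proficient cells. The values in BRCA2-deficient cells were 2141, 1871 and 2494 and then 3300, 3072 and 3554. The groups did not overlap in either background. In BRCA2-deficient cells it rose by 0.61 ± 0.17 on the log2 scale (DESeq2 adjusted p = 0.00214), called in all 11 alternative fits; in BRCA2-proficient cells the change of 0.42 ± 0.13 (DESeq2 adjusted p = 0.0052) was under the size criterion. MLX (ENSG00000108788, chromosome 17, 40719090 to 40725257, plus strand) had 699 and 759 untreated and 978, 963 and 1020 with GSK3i in BRCA2-proficient cells, a change of 0.42 ± 0.14 (DESeq2 adjusted p = 0.0118) also under the size criterion. Its change in BRCA2-deficient cells was 0.23 ± 0.15 (DESeq2 adjusted p = 0.246). For MLX, 18.2% of exon length is shared with PSMC3IP on the opposite strand.

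**Figure D3:**
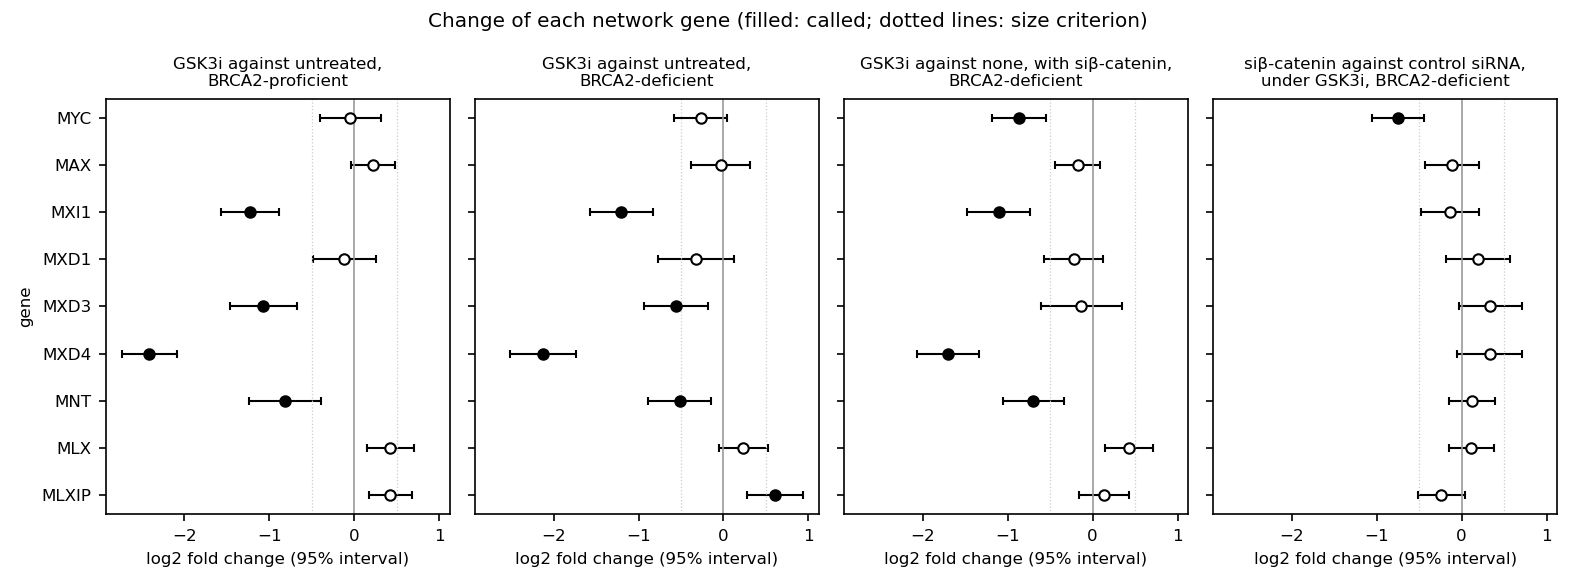
Log2 fold change of each network gene (horizontal axis, with 95% intervals) in 4 comparisons; filled points passed the test and the dotted lines mark the size criterion of 0.5. MXD4, MXI1 and MNT lie to the left in the 3 GSK3i panels, and MYC is filled in the 2 panels that involve siβ-catenin, at -0.87 and -0.75.

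A DESeq2 test of the difference between the backgrounds called none of the 9 genes, beside 0.0345% of 17381 genes. edgeR called 0, and 0 had an unadjusted DESeq2 p below 0.05, beside 558 of the 17381. The largest differences (BRCA2-deficient minus BRCA2-proficient response) were 0.50 for MXD3, with a 95% interval of -0.04 to 1.04, and 0.28 for MNT, from -0.33 to 0.90. For MXD4 the difference was 0.27, from -0.28 to 0.82, and for MLXIP 0.17, from -0.22 to 0.55. A call for MLXIP in BRCA2-deficient cells alone is therefore not shown to be particular to them.

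Promoter windows that hold one of 2 motifs are shown because MYC/MAX and MXD/MAX pairs bind the E-box CACGTG and because forkhead (FOXO) factors, which MXI1 is known to answer to, bind GTAAACA. The windows hold 250 bases before and 50 after the RefSeq start site on GRCh38.p14 (a later build than that of the counts), and 8 of the 9 genes, all but MYC, had a window that could be used, 11 windows in all; the MYC promoter was not analysed here. Capitals mark the E-box in the first 3 and the forkhead motif (read on either strand) in the other 2.
MXD4 (chr4:2262060-2262359, minus strand): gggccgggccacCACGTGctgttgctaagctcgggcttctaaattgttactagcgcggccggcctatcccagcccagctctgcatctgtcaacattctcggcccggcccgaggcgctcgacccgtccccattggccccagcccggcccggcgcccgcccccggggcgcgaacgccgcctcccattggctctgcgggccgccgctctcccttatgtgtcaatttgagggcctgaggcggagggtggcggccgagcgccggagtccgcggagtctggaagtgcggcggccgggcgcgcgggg
MNT (chr17:2401011-2401310, minus strand): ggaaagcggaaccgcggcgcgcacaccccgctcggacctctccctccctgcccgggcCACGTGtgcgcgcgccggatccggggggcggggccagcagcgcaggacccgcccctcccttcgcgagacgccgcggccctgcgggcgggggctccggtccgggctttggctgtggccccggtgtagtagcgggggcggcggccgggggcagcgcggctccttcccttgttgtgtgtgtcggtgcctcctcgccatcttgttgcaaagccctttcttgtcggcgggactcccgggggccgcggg
MLX (chr17:42566850-42567149, plus strand): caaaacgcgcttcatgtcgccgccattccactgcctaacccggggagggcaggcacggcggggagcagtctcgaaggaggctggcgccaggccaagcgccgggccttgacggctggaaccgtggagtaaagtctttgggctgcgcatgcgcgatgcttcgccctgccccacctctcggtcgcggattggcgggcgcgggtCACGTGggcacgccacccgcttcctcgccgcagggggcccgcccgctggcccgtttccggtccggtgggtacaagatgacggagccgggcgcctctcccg
MXI1 (chr10:110209981-110210280, plus strand): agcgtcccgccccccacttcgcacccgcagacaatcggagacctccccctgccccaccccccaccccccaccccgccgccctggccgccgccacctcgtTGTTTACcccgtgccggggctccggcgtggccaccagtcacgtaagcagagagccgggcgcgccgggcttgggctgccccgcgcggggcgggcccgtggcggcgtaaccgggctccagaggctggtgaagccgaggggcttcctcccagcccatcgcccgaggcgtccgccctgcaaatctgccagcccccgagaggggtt
MXI1 (chr10:110225746-110226045, plus strand): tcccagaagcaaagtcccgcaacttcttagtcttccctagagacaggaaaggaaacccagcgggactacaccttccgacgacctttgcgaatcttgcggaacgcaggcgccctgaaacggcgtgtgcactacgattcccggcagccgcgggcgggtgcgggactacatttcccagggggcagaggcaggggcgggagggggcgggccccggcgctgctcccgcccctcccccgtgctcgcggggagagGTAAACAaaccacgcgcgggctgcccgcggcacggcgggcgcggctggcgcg
The E-box was found in the windows of MXD4, MNT and MLX and in those of no other network gene, at positions -238, -193 and -50 relative to the start site; 7.26% of 35116 promoter windows hold it. It was thus present in 2 genes that fell and in 1 that was not called. The forkhead motif was in 2 of the 3 MXI1 windows, at positions -151 and -2, and in no other of the 11, beside 3.42% of all windows. The β-catenin/TCF motifs CTTTGAA and CTTTGAT (4.43% and 2.62% of all windows, both strands) were in none of the 11, among which MYC has no window. These are matches of letters and no measure of binding.

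The repressors were then summed per kb (MXD1, MXD3, MXD4, MXI1 and MNT) and set beside MYC. The sum was 1031 to 1146 normalised counts per kb in the BRCA2-proficient and 990.2 to 1256 in the BRCA2-deficient untreated libraries. With GSK3i it was 370.2 to 428.7 and 401.9 to 442.8. MXD4 made up 51.7 to 68.5% of the sum in untreated libraries and 23.8 to 41.6% with GSK3i. The ratio of MYC to the sum was 0.608 to 0.859 in the 5 untreated libraries and 1.30 to 2.17 in the 6 GSK3i libraries, without overlap. It is a ratio of transcript levels within a library, in which the repressor sum was lower with GSK3i and MYC was not called.

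**Figure D4:**
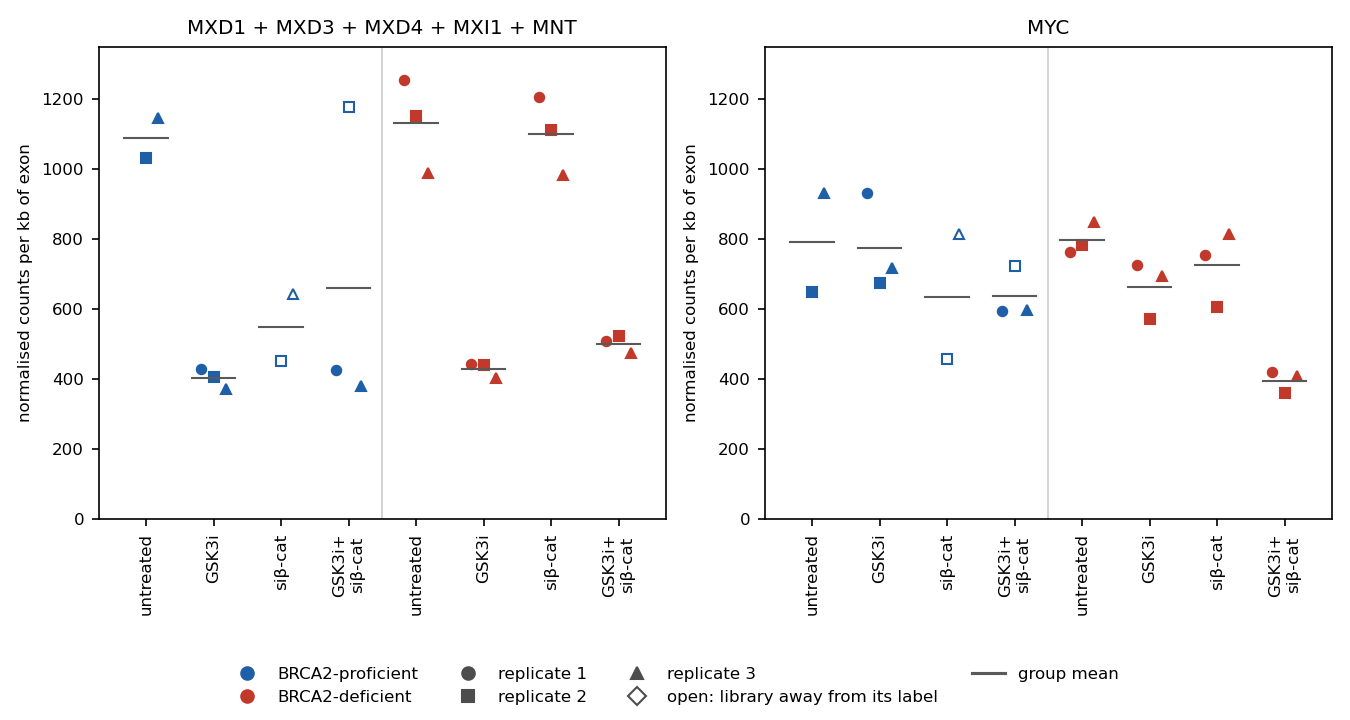
Normalised counts per kb of exon (vertical axes, linear from 0, same scale) of the 5 summed repressors (left) and of MYC (right) in each library; symbols as for the plot of the 9 genes. The repressor sum is 370.2 to 442.8 in the 6 GSK3i libraries with control siRNA and 990.2 to 1256 in the 5 untreated ones.

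The second comparison asked what depletion of β-catenin did under GSK3i. MYC fell in BRCA2-deficient cells, and no other network gene was called. MYC had 4434, 3489 and 4244 normalised counts with GSK3i and 2568, 2192 and 2488 with GSK3i+siβ-catenin. The highest of the latter lay below the MYC value of each of the other 19 libraries. The log2 change was -0.75 ± 0.16 (DESeq2 adjusted p = 0.000116), called in all 11 alternative fits with values from -0.85 to -0.69. MYC was the 1 network gene called, beside 5.52% of 17025 genes called and 2.57% called lower. MXD4 changed by 0.33 with a 95% interval of -0.06 to 0.71, and MXI1 by -0.14, from -0.48 to 0.21.

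In BRCA2-proficient cells under GSK3i, none of the 9 was called with siβ-catenin by DESeq2, beside 5.10% of 16393 genes. edgeR called 0, and 2 (MXD4 and MXD3) had an unadjusted DESeq2 p below 0.05, beside 2875 of the 16393. The group holds the library labelled GSK3i+siβ-catenin replicate 2. MYC had 5694, 4121 and 4375 with GSK3i and 3640, 4416 and 3651 in the labelled GSK3i+siβ-catenin libraries. These overlap through replicate 2 at 4416. The change of MYC was -0.25 ± 0.17 (DESeq2 adjusted p = 0.457), and -0.36 without replicate 2, still not called (DESeq2 adjusted p = 0.175). MXD4 had 1010, 4546 and 913 in the labelled libraries, so that its change of 1.51 ± 0.76 fell to 0.33 without replicate 2. The difference of the MYC response between the backgrounds was -0.48 ± 0.23 with a 95% interval of -0.92 to -0.04 and was not called (DESeq2 adjusted p = 1), like the other 8 genes (edgeR called 0, and 1, MYC itself, had an unadjusted p below 0.05), beside 0.00570% of 17544 genes. An unadjusted DESeq2 p below 0.05 was found for 326 of the 17544 genes in that test. Whether the fall of MYC depended on BRCA2 is thus not shown.

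Without GSK3i, no network gene was called with siβ-catenin in BRCA2-deficient cells by DESeq2, beside 2.03% of 17324 genes. edgeR called 0, and 0 had an unadjusted DESeq2 p below 0.05, beside 2215 of the 17324. MYC had 4614, 3706 and 4981 normalised counts against 4664, 4779 and 5195 untreated, a log2 change of -0.13 with a 95% interval of -0.45 to 0.18. MXD4 had 5356, 4881 and 3915 against 5918, 5071 and 4069, a change of -0.08 from -0.44 to 0.28. MNT changed by 0.32 ± 0.20 and MLXIP by 0.25 ± 0.17. In BRCA2-proficient cells the comparison held the 2 libraries labelled siβ-catenin that lay away from the untreated ones. There MXD4 (987 and 1895 against 4059 and 4075) changed by -1.51 ± 0.29 (DESeq2 adjusted p = 5.16e-05), and MXI1 and MNT were also called lower, both at -0.90 (DESeq2 adjusted p = 0.0462 and 0.0409), beside 2.85% of 17654 genes called and 1.89% called lower. Of 9 alternative fits MNT lost its call in 7, including all 4 that left out a library, MXI1 in 6 and MXD4 in 4; edgeR's quasi-likelihood test and the model over all groups called none of the 3. Without untreated replicate 2 and without untreated replicate 3 none of the 3 was called, and without siβ-catenin replicate 2 MXI1 was not (-0.59). The fits that left out a library kept 3 libraries, so the filter on low counts dropped no gene and 37908 entered the fit. With every library kept and no filter, 30135 genes entered the fit and MXD4, MXI1 and MNT all stayed called. The part of the wider set of genes in the calls lost with 3 libraries was not tested. MXD4, MXI1 and MNT are among the 4 repressors that fell with GSK3i, and the siβ-catenin libraries here lay at 0.746 and 0.306 of the GSK3i response. MXD3, the other one, was not called (-0.87, DESeq2 adjusted p = 0.142).

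With siβ-catenin present, GSK3i lowered MXD4, MXI1, MNT and MYC in BRCA2-deficient cells, 4 of the 9 genes beside 20.1% of 17610 genes and 11.5% called lower. MXD4 had 5356, 4881 and 3915 without and 1542, 1665 and 1146 with GSK3i (-1.70 ± 0.19, DESeq2 adjusted p = 2.32e-17). MXI1 had 631, 660 and 457 and then 272, 268 and 270 (-1.10 ± 0.19, DESeq2 adjusted p = 1.95e-07). The groups of each gene lay far apart. MNT changed by -0.70 ± 0.18 (DESeq2 adjusted p = 0.00147), a call lost without siβ-catenin replicate 1 (-0.52, DESeq2 adjusted p = 0.0566).

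MYC, which GSK3i had left uncalled with control siRNA, had 4614, 3706 and 4981 with siβ-catenin alone and 2568, 2192 and 2488 with both, a change of -0.87 ± 0.16 (DESeq2 adjusted p = 2.58e-06) that held in all 11 alternative fits. The test of the difference between the 2 GSK3i responses gave -0.62 ± 0.21 for MYC, not called without a replicate term (DESeq2 adjusted p = 0.225) and called with the replicate number as a block (-0.60, DESeq2 adjusted p = 0.00358). Same-numbered libraries of these groups had correlated deviations, less clearly for number 2. There GSK3i replicate 2 had r of 0.461 with untreated replicate 3 and 0.268 with untreated replicate 2. The difference for MYC was called in 1 of 12 leave-one-out fits, without siβ-catenin replicate 2 (-0.73, DESeq2 adjusted p = 0.0428). Its adjusted p ran from 0.00358 to 0.839 over the 17 alternative fits. No other network gene was called for this difference, beside 0.486% of 18117 genes, and edgeR called 0. MYC and MLXIP, 2 genes, had an unadjusted DESeq2 p below 0.05, beside 994 of the 18117. Over all genes the block called 335 of the 18117, beside 88 without it. The differences for MXD4 (0.41, 95% interval -0.14 to 0.97) and MXI1 (0.08, -0.40 to 0.57) had intervals that include 0. The ratio of MYC to the repressor sum was 0.686 to 0.861 in the GSK3i+siβ-catenin libraries, below its 1.30 to 1.73 with GSK3i alone.

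In BRCA2-proficient cells with siβ-catenin, none of the 9 was called with GSK3i by DESeq2, beside 0.0529% of 17010 genes. These groups hold all 3 libraries at odds with their labels. edgeR called 0, and 1 had an unadjusted DESeq2 p below 0.05, beside 263 of the 17010. MXD4 changed by 0.60 ± 0.99. With both libraries numbered 2 left out, an alternative chosen after seeing the data that leaves siβ-catenin with 1 library, MXD4 was -0.97 (DESeq2 adjusted p = 6.13e-06) and MXI1 -0.95 (DESeq2 adjusted p = 0.00722), both called. The difference between siRNAs in the GSK3i response was called for MXD4 (3.01 ± 1.05, DESeq2 adjusted p = 0.0483), beside 7.63% of 17093 genes called and 3.87% called higher. It was lost with edgeR (adjusted p = 0.101), with the replicate number as a block (2.72, DESeq2 adjusted p = 0.115; the numbers could not be shown to pair these libraries) and in 6 of 10 leave-one-out fits, those without untreated replicate 2 or 3, GSK3i replicate 1, 2 or 3, or siβ-catenin replicate 2.

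The last comparisons asked what BRCA2 depletion did to the network. Untreated, MXD3 was lower in BRCA2-deficient cells, at 405, 433 and 361 normalised counts against 685 and 582. The change was -0.69 ± 0.19 (DESeq2 adjusted p = 0.00818), 1 of 9 beside 6.92% of 17157 genes called and 4.15% called lower, and it was not called by edgeR (adjusted p = 0.0743), nor without BRCA2-proficient replicate 2 or 3 or BRCA2-deficient replicate 2. MYC changed by -0.01 with a 95% interval of -0.41 to 0.38, MXD4 by 0.28, from -0.10 to 0.65, and MXI1 by -0.38, from -0.79 to 0.04. Under GSK3i MXD4 was higher in BRCA2-deficient cells, 1266, 1215 and 973 against 891, 819 and 607, without overlap. The change was 0.57 ± 0.19 (DESeq2 adjusted p = 0.0319), 1 of 9 beside 6.81% of 16336 genes called and 3.76% called higher. edgeR's test did not call it (adjusted p = 0.0983), nor did the fits without BRCA2-proficient GSK3i replicate 2 or 3 or BRCA2-deficient GSK3i replicate 2. Shares of 1 in 9 lie near the background in both.

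With GSK3i+siβ-catenin, MYC was lower in BRCA2-deficient cells, 2568, 2192 and 2488 against 3640, 4416 and 3651. The change was -0.70 ± 0.17 (DESeq2 adjusted p = 0.00106), 1 of 9 beside 7.74% of 17046 genes called and 4.36% called lower, and -0.61 without the library labelled BRCA2-proficient GSK3i+siβ-catenin replicate 2 (DESeq2 adjusted p = 0.00129). The call held in all 11 alternative fits. MXD4 changed by -0.58 ± 0.76 there and by 0.58 (DESeq2 adjusted p = 0.034, called) without that library. With siβ-catenin alone, MXD4 (1.69 ± 0.27, DESeq2 adjusted p = 2.89e-08) and MNT (0.99 ± 0.22, DESeq2 adjusted p = 7.06e-05) were higher in BRCA2-deficient cells, 2 of 9 beside 27.4% of 17813 genes called and 13.6% called higher, against the BRCA2-proficient libraries that lay at 0.746 and 0.306 of the GSK3i response. Without siβ-catenin replicate 3 of BRCA2-proficient cells MYC (0.64) and MLX (-0.67) were called as well.

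Further genes of the pathway were taken from lists written with earlier results of these data known. Of 34 genes that MYC is known to activate, 30 rose with GSK3i in BRCA2-proficient cells and 30 in BRCA2-deficient cells, and none fell (edgeR called 0 lower, and no value was negative), beside 11.8% and 11.6% of all genes called higher. The median log2 change was 1.0 and 0.93, beside -0.00209 and 0.02 over all genes. In BRCA2-proficient cells the largest increases were those of RRS1 (1.81 ± 0.16), NOP16 (1.78 ± 0.14) and TFRC (1.38 ± 0.13); RRS1 and NOP16 act in ribosome assembly and TFRC is the transferrin receptor. In BRCA2-deficient cells they were SLC7A5 (1.78 ± 0.16), an amino acid transporter, NOP16 (1.67 ± 0.21) and TFRC (1.58 ± 0.22). Each of the 3 BRCA2-proficient GSK3i libraries had all 34 above the untreated mean.

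After siβ-catenin, 28 of the 34 rose with GSK3i in BRCA2-deficient cells, with a median of 0.63, beside 8.56% of all genes called higher. Comparing siβ-catenin with control siRNA under GSK3i, 6 of the 34 fell in BRCA2-deficient cells (median -0.41, all genes -0.02), led by RRS1 (-0.92 ± 0.18), BOP1 (-0.64 ± 0.17) and GNL3 (-0.57 ± 0.17), and 33 of 34 had a negative value, beside 2.57% of all genes called lower. edgeR called 1 of them. The count was 3 without GSK3i replicate 2, without GSK3i replicate 3, without GSK3i+siβ-catenin replicate 2 and without GSK3i+siβ-catenin replicate 3. In BRCA2-proficient cells 3 fell (RRS1, -1.15 ± 0.28; SLC7A5, -0.96 ± 0.26; NCL, -0.56 ± 0.16), with a median of -0.51 and all 34 negative, beside 1.92% of all genes called lower. This group holds the library labelled GSK3i+siβ-catenin replicate 2, in which the 34 genes had a median of 0.0576 over the untreated mean on the log2 scale, against 0.685 and 0.732 in replicates 1 and 3. Without it the median was -0.34, 33 of 34 were negative and 3 were called, NCL (-0.43) not among them. With all libraries the count was 13 with the replicate block, for numbers that paired these libraries, 0 with edgeR, 1 without GSK3i replicate 2 or 3, and 11 without GSK3i+siβ-catenin replicate 3. Without GSK3i in BRCA2-deficient cells 3 of 34 fell (NPM1, -0.58 ± 0.15; HSPD1, -0.58 ± 0.12; LDHA, -0.53 ± 0.16), beside 0.820% of all genes called lower. edgeR called 0 of the 34 there, as did DESeq2 without untreated replicate 2 and without siβ-catenin replicate 1, and 1 was called without siβ-catenin replicate 3. In BRCA2-proficient cells without GSK3i the list went the other way with siβ-catenin. An unadjusted DESeq2 p below 0.05 was found for 25 of 34, all higher, beside 2336 of 17654 genes in either direction. The siβ-catenin libraries had list medians of 0.664 and 0.399 over the untreated mean on the log2 scale. These libraries lay at 0.746 and 0.306 of the GSK3i response. BRCA2 depletion lowered 3 of 34 in untreated cells (SLC7A5, -1.68 ± 0.21; POLR1B, -0.93 ± 0.25; SHMT2, -0.51 ± 0.17), beside 4.15% of all genes called lower. The count was 1 with edgeR, without BRCA2-proficient replicate 2 or 3 and without BRCA2-deficient replicate 2; SHMT2 lost its call in 4 of 5 and POLR1B in 3 of 5 leave-one-out fits.

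**Figure D5:**
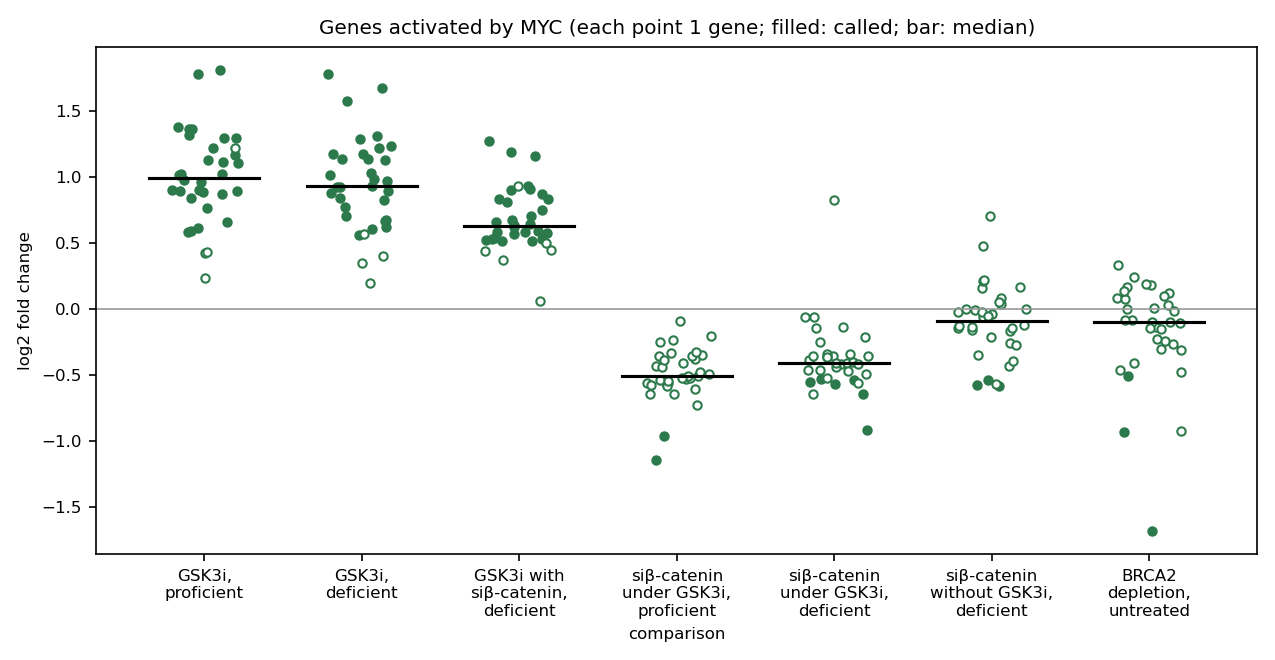
Log2 fold change (vertical axis) of each of 34 genes known to be activated by MYC in 7 comparisons; filled points passed the test and bars are medians. The comparison of siβ-catenin without GSK3i in BRCA2-proficient cells is not drawn. The medians are 1.0 and 0.93 with GSK3i and -0.51 and -0.41 for siβ-catenin under GSK3i; the -0.51, in BRCA2-proficient cells, includes the library labelled GSK3i+siβ-catenin replicate 2 and was -0.34 without it.

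Of 7 genes that MYC represses, 6 could be tested, and 3 fell with GSK3i in each background: CDKN1C (-3.02 ± 0.50 and -2.30 ± 0.45), NDRG2 (-1.04 ± 0.21 and -0.97 ± 0.21) and CDKN1A (-1.02 ± 0.20 and -0.71 ± 0.23), the first and last of which encode the cell cycle inhibitors p57 and p21. This stands beside 14.3% and 13.8% of all genes called lower, and in BRCA2-deficient cells CDKN1A was not called without untreated replicate 1, GSK3i replicate 2 or GSK3i replicate 3. An unadjusted DESeq2 p below 0.05 was found for 3 of the 6 in BRCA2-proficient cells, all lower, beside 7126 of 16771 genes in either direction. In BRCA2-deficient cells it was found for 4, of which 3 were lower and 1 higher, beside 6424 of 16863 genes. The other network genes were MLXIPL, MGA, ZBTB17 and MYCL. MLXIPL, the ChREBP partner of MLX, fell with GSK3i, with changes of -1.29 ± 0.25 (BRCA2-proficient) and -1.0 ± 0.28 (BRCA2-deficient), and rose with siβ-catenin under GSK3i by 1.26 ± 0.25 (1.05 and still called without the library labelled GSK3i+siβ-catenin replicate 2) and by 0.80 ± 0.20; the last call was lost with edgeR, without GSK3i replicate 2 and without GSK3i+siβ-catenin replicate 2. MGA changed by 0.04 ± 0.19 and 0.11 ± 0.34 with GSK3i and ZBTB17 by 0.32 ± 0.16 and 0.45 ± 0.14, not called, and MYCL was at most 17.6 normalised counts in BRCA2-proficient and 15.5 in BRCA2-deficient libraries. MYCN was not analysed here. PVT1, the long noncoding RNA beside MYC, changed by -0.30 ± 0.18 and -0.17 ± 0.16 with GSK3i and by -0.15 ± 0.14 with siβ-catenin under GSK3i in BRCA2-deficient cells, and was not called. CASC8 changed by 0.42 ± 0.65 and -0.19 ± 0.48 with GSK3i, not called, PCAT1 was at most 4.33 normalised counts, and CCAT1 was not analysed here.

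Among 11 genes of the SIN3 and histone deacetylase complex that MXD proteins recruit, DESeq2 called none with GSK3i in BRCA2-proficient cells. Of all 16771 genes, 26.1% were called there. edgeR called 0 of the 11, and 5 had an unadjusted DESeq2 p below 0.05, beside 7126 of the 16771. In BRCA2-deficient cells 1 was called (ING1, 0.72 ± 0.20, higher), beside 25.4% of 16863 genes. Among 14 genes of MYC protein turnover, 2 and 5 rose and none fell, beside 11.8% and 11.6% of all genes called higher (3 rose in BRCA2-deficient cells without untreated replicate 2), led in BRCA2-deficient cells by USP36 (1.08 ± 0.18), CIP2A (1.06 ± 0.29) and AXIN1 (1.0 ± 0.14). USP36 is a nucleolar deubiquitinase of MYC and CIP2A an inhibitor of the phosphatase PP2A. GSK3B itself changed by -0.08 ± 0.14 and 0.01 ± 0.21. Among 13 coactivators of MYC, 3 rose in BRCA2-proficient cells (WDR5, 0.83 ± 0.12; KAT2A, 0.81 ± 0.13; RUVBL1, 0.79 ± 0.13) and 4 in BRCA2-deficient cells, the same 3 and RUVBL2 (0.56 ± 0.20), beside the same shares of all genes. The MondoA target KLF10 changed by 0.07 ± 0.23 and 0.27 ± 0.28 and was not called. ARRDC4, tested in BRCA2-proficient cells alone, changed by -1.04 ± 0.74 (not called), and TXNIP was not analysed here.

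Across the 8 group means of log2(normalised count + 1), the genes most like MYC among 11898 with a mean of at least 100 normalised counts were NT5C (Pearson r = 0.976), SFRP1 (0.972) and DCBLD2 (0.953). Those most like MXD4 with a symbol were OCEL1 (0.998) and DYRK1B (0.996), those most like MXI1 were NUAK1 (0.997), KDM3B (0.991) and TRIQK (0.989), and those most like MLXIP were MEX3A (0.993), BICD2 (0.983) and SMPD4 (0.982). Within the network MXD4 had r = 0.92 with MNT, 0.81 with MXI1, -0.90 with MLX and -0.86 with MLXIP. These values describe 8 group means that share a cell line and, for 2 of them, libraries at odds with their labels. Over the other 6 groups the first of each set had r of 0.977, 0.998, 0.998 and 0.994. The genes were picked over the 8 groups, which include these 6, so the values over 6 are no separate check.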

How the data were processed

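Poly(A)-enriched, strand-specific RNA-seq libraries were aligned by the authors to GRCh37 with HISAT2 2.0.4, cleared of duplicates with Picard 1.9.2 and summarised with featureCounts 1.5.0 (versions from the submitters' processing notes). The deposited values are raw read counts per Ensembl gene; duplicate removal lowers the counts of abundant genes most. Symbols, coordinates and exon lengths came from a GENCODE annotation of the same build. DESeq2 1.42.0 (R 4.3.3) was fitted to the libraries of each comparison (12 pairs, 4 interaction tests) with its default size factors and Wald test, and Benjamini-Hochberg adjustment over all genes tested; a gene was called at adjusted p below 0.05 and a log2 fold change beyond 0.5 in size. Genes with fewer than 10 counts in more than 3 libraries were dropped; interaction tests kept genes with 10 counts in at least 3. All 9 network genes passed each filter. Intervals are Wald 95% intervals. Alternatives were edgeR 4.0.16, TMM factors, no filter, 1 model over all groups, the replicate number as a block and leaving out each library. The fits were tested on simulated counts. Same-numbered libraries deviated together in each of the 7 comparisons with 3 pairs (r of 0.141 to 0.868), so the numbers, given by the titles, were taken to pair those. The main fits had no replicate term and so left this pairing out. The block, which takes it in, changed 4 of 144 calls of network genes. Number 2 paired less clearly. With control siRNA in BRCA2-deficient cells, GSK3i replicate 2 had r of 0.461 with untreated replicate 3 and 0.268 with untreated replicate 2. Under GSK3i, BRCA2-deficient replicate 2 had r of 0.396 with BRCA2-proficient replicate 3 and 0.141 with BRCA2-proficient replicate 2. The network and the gene lists were chosen with earlier results of these data known, and gene names follow a rule by size of change among those called.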

Additional observations from a re-analysis of the deposited data

Results flagged for a closer look

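MXD4 differed between siRNAs in its response to GSK3i in BRCA2-proficient cells by 3.01 on the log2 scale (tested with an interaction term, DESeq2 adjusted p = 0.0483; not called by edgeR, with the replicate block or in 6 of 10 leave-one-out fits), in groups that hold the 3 libraries at odds with their labels. MNT with siβ-catenin and without GSK3i had a log2 change of -0.90 in BRCA2-proficient cells and of 0.32 in BRCA2-deficient cells, with every siβ-catenin library on opposite sides of the untreated mean in the 2 backgrounds; this difference was not tested. MLX in the same comparison had 0.35 with BRCA2 and -0.059 after its depletion, again with all libraries on opposite sides, and this difference was not tested. The positions of the BRCA2-proficient siβ-catenin libraries on the GSK3i response (0.746 and 0.306) stand beside these values; their part in them was not tested.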

How the results depend on the processing

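Of 1737 values of the 9 genes under alternative settings, 1670 kept their side of the threshold, and 47 lost and 17 gained a call. The other 3, uncalled in the main fit, changed sign and gained a call, and are termed reversed here. Values called in neither fit were counted as kept even where their sign changed. Such sign changes numbered 190 over the 9 genes and the named genes of the lists together. The reversed values were those of MXD4 (-0.97) and MXI1 (-0.95) for GSK3i with siβ-catenin in BRCA2-proficient cells, with both libraries numbered 2 left out, and of MXD4 for BRCA2 depletion with GSK3i and siβ-catenin (0.58) without the library labelled BRCA2-proficient GSK3i+siβ-catenin replicate 2. The number of network genes called moved with edgeR to 0 for siβ-catenin without GSK3i in BRCA2-proficient cells, BRCA2 depletion untreated, BRCA2 depletion under GSK3i and the difference between siRNAs in BRCA2-proficient cells. With 1 model over all 8 groups it was 0 for the first 3 of these and 3 for the last, 1 for BRCA2-proficient cells when siβ-catenin was compared under GSK3i, 3 for GSK3i in BRCA2-deficient cells and 2 for BRCA2 depletion with GSK3i and siβ-catenin. With both libraries numbered 2 left out it was 2 for GSK3i with siβ-catenin in BRCA2-proficient cells. The cause was not tested.

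Leaving out 1 library gave 3 to 4 called genes for GSK3i with control siRNA in BRCA2-proficient cells and 3 to 5 in the deficient ones, 3 to 4 for GSK3i with siβ-catenin in BRCA2-deficient cells, 0 to 3 for siβ-catenin without GSK3i in BRCA2-proficient cells, 0 to 1 for BRCA2 depletion untreated and under GSK3i and for the difference between siRNAs in BRCA2-deficient cells, 2 to 4 for BRCA2 depletion with siβ-catenin, 1 to 2 with GSK3i and siβ-catenin, and 0 to 4 for the difference between siRNAs in BRCA2-proficient cells. Where this left 1 library in a group, its spread was taken from the others. Where 3 libraries remained in a fit of 2 groups, the filter on low counts dropped no gene and 37908 entered the fit. The replicate block moved the count to 1 for siβ-catenin without GSK3i in BRCA2-proficient cells, to 1 for the difference between siRNAs in BRCA2-deficient cells and to 0 for the same difference in BRCA2-proficient cells, 4 of 144 calls; in comparisons with 2 pairs the pairing could not be decided.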
